A study of Mus musculus with 13 samples.

Results

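The genes of the major histocompatibility complex (MHC, named H2 in the mouse) and of antigen processing were followed in mandibular condylar cartilage, the cartilage that caps the jaw's side of the temporomandibular joint. Members were every gene whose symbol begins with H2-, of which there were 31, together with 14 listed by name: B2m, Tap1, Tap2, Tapbp, Tapbpl, Erap1, Cd74, Ciita, Nlrc5, Psmb8, Psmb9, Psmb10, Psme1 and Psme2. The rule gave 45 members of the 18748 genes in the deposited table: 22 of class I, 11 of class II, 11 of processing, and H2-Ke6, which lies in the complex but encodes a steroid dehydrogenase and no MHC molecule. The study set aged mice, 18 months old with 6 libraries, against young mice, 2 months old with 7 libraries, and asked how gene expression in this cartilage differs with age. Strain, sex, genotype and the number of mice behind a library are not given in the sources used here, so p-values measure the spread between libraries, and the H2 haplotype of the mice is not known.

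Class I molecules are a heavy chain paired with beta-2 microglobulin, made by nearly all nucleated cells, and they carry peptides that the proteasome cut in the cytosol and the TAP transporter moved into the endoplasmic reticulum. Class II molecules are alpha and beta chain pairs made mainly by dendritic cells, macrophages and B cells; the invariant chain Cd74 guards their groove until peptide is loaded in endosomes. Interferon gamma is a known inducer of both, through the transactivators Nlrc5 for class I and Ciita for class II.

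Class I and class II promoters share a short upstream module that ends in a CCAAT box read on the opposite strand, and stretches from 4 class II genes are shown so that the shared box can be seen. Each runs over 200 bases before the annotated start in RefSeq on GRCm38.p6, 5′ to 3′ on the gene's strand. In the first 4, capitals mark the CCAAT box on either strand (CCAAT or ATTGG), for H2-Aa (minus strand, chr17:34287824-34288023), H2-Eb1 (plus, chr17:34305667-34305866), and the paralogs H2-DMb1 (plus, chr17:34152991-34153190) and H2-DMb2 (plus, chr17:34145049-34145248).
H2-Aa: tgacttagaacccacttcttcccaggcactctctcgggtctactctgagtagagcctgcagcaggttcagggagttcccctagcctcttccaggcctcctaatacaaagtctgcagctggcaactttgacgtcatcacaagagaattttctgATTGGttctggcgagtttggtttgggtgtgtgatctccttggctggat
H2-Eb1: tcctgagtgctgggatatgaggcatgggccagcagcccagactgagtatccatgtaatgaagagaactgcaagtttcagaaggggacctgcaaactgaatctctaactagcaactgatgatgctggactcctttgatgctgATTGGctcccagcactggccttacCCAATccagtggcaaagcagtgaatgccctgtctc
H2-DMb1: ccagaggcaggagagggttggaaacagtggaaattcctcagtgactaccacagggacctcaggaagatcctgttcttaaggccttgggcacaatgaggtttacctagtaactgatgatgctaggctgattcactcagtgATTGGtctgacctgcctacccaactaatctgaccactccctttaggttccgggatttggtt
H2-DMb2: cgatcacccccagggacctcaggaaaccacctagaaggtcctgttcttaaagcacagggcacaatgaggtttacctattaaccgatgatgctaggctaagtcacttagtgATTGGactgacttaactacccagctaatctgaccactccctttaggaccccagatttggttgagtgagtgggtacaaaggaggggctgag
The letters CCAAT, on either strand and within 250 bases before the start, were found in 8 of 8 class II members with a window, in 16 of 19 class I members and in 3 of 8 processing members, against 33.8% of all 32851 RefSeq windows of that length. On the opposite strand and within 100 bases, they were found in 7 of 8 class II, 11 of 19 class I and 1 of 8 processing members, against 10.4% of all windows.

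The second set shows, in capitals, the core of an interferon-stimulated response element (GAANNGAAA on either strand) in class I promoters. H2-K1 (minus strand, chr17:34000348-34000547, the more upstream of 2 listed starts) is a classical gene, and H2-Q6 (plus, chr17:35424650-35424849) is a Qa gene.
H2-K1: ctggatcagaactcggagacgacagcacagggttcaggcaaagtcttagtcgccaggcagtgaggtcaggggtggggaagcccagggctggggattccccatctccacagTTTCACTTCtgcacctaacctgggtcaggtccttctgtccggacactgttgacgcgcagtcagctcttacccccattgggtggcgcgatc
H2-Q6: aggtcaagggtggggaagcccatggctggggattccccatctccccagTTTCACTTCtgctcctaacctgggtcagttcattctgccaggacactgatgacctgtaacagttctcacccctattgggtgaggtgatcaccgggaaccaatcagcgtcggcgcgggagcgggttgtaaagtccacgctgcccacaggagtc
These letters occurred in 8 of 19 class I members, 0 of 8 class II and 0 of 8 processing members, against 6.31% of all windows. An interferon gamma activated site (TTCNNNGAA, which reads the same on both strands) occurred in 2 of 19 class I, 1 of 8 class II and 1 of 8 processing members, against 7.02% of windows. Of the 45 members, 36 had a window, and a match or its absence describes these letters only. Tap1 (plus strand, chr17:34187356-34187555), shown with no capitals, shares 275 of its 300 window bases with Psmb9, which is read from the opposite strand.
Tap1: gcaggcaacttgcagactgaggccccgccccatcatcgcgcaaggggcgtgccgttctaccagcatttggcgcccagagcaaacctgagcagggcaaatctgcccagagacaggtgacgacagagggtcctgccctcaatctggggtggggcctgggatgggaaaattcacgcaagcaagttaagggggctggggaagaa

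Levels are CPM, read counts relative to the library total, scaled for composition by the trimmed mean of M-values (TMM), and a log2 fold change is aged minus young. A gene was called when edgeR's quasi-likelihood test gave an adjusted p (Benjamini-Hochberg, over all 14067 genes tested) under 0.05, after a filter that removed genes of low count. Libraries held 16356839 to 17876681 assigned reads in the aged mice and 17531694 to 18203443 in the young mice. Aged replicate 2 was the highest aged library in 10 of 13 tested class I, 9 of 10 class II and 11 of 11 processing members; young replicate 1 was the highest young library in 8 of 13, 7 of 10 and 7 of 11. Both also had the highest summed macrophage and monocyte markers of their age, 876.9 CPM in aged replicate 2 and 830.2 CPM in young replicate 1. In summed pan-leukocyte markers they ranked 4 of 6 aged and 2 of 7 young libraries. Their ranks were 5 and 1 in dendritic cell markers, and 2 and 2 in B cell markers. Each main count is given with and without aged replicate 2 and young replicate 1. Chondrocyte markers were present in both ages, with 2 of 7 called higher and 3 lower. Col2a1, the cartilage collagen, had 4519 to 12670 CPM in aged and 19670 to 32980 CPM in young libraries. The other 6, led by Comp and Acan, summed to 6320 to 13020 CPM in aged and 4905 to 7335 CPM in young libraries. They did not all go the same way: Comp was higher (1.02), Acan was not called (−0.06) and Hapln1 was lower (−0.67). Prg4, the lubricant of the joint surface, was among those higher (2.8), and Matn1 had 0 to 0.113 CPM in aged and 0.429 to 0.877 CPM in young libraries. Because the libraries are bulk tissue, fewer cells of a type and less RNA per cell cannot be told apart.

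Of the 45 members, 35 passed the filter and 21 of those were higher in aged cartilage: 7 of 13 class I, 7 of 10 class II and 6 of 11 processing members, and H2-Ke6. Of all genes tested, 24.7% were called higher, 21.6% lower and 46.2% either way. No member was called lower, and the count at an unadjusted p under 0.05 was also 0 in edgeR and, at an adjusted p under 0.05, in DESeq2 and limma-voom. The median log2 fold change was 0.45 for class I, 0.66 for class II and 0.35 for processing, beside 0.01 over all genes tested. H2-Oa passed the filter only through the aged libraries, and the other 34 passed it in both ages alone. H2-Oa stands in these counts, though its call cannot be separated from that filter. Under a filter of 1 CPM in 6 libraries H2-Oa was untested, and 6 class II members were called. All aged libraries lay above all young libraries in 3 members, H2-M3, H2-T24 and Tap2, a share near the 8.28% found over all genes.

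**Figure D1:**
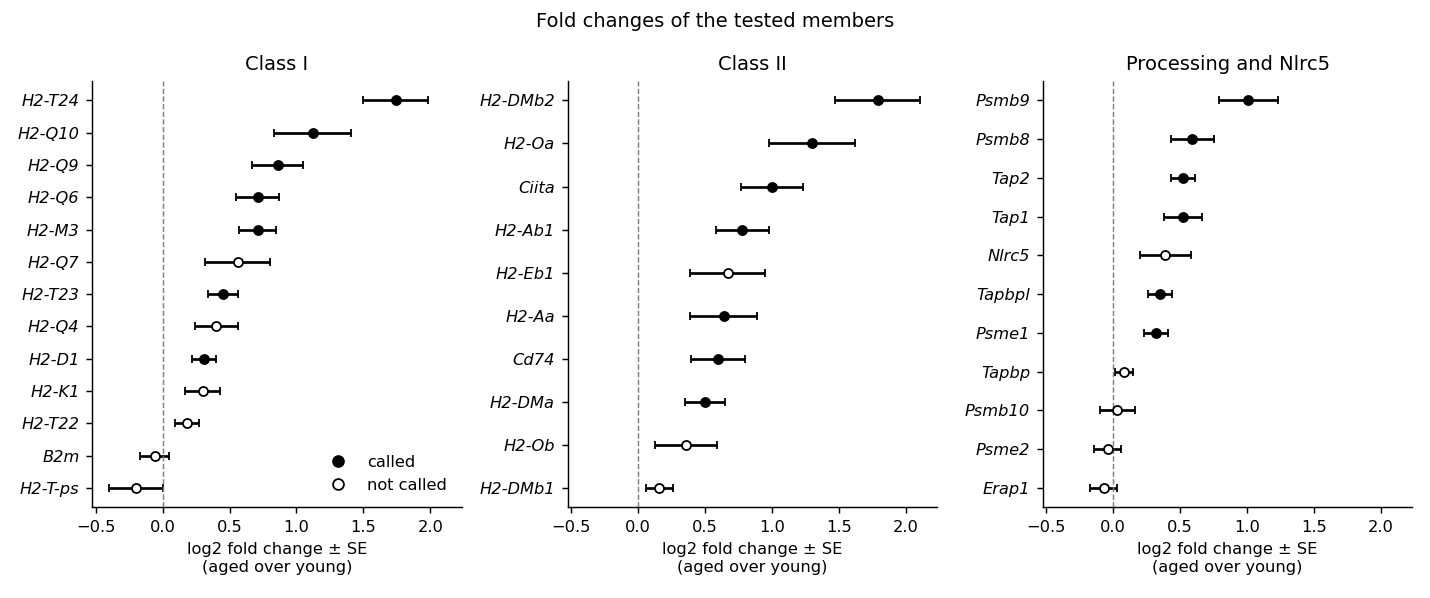
Log2 fold change, aged minus young, of the 34 tested class I, class II and processing members (H2-Ke6 is not drawn), with bars of 1 standard error and filled symbols for members that edgeR called at an adjusted p under 0.05. Class II members all lie above 0, from 0.16 for H2-DMb1 to 1.79 for H2-DMb2, while B2m, H2-T-ps, Psme2 and Erap1 lie below 0. H2-Oa is drawn, though it passed the filter only through the aged libraries.

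Cd74, H2-Ab1 and H2-Aa were higher in aged cartilage, and H2-Eb1 missed the threshold. Cd74, the chaperone of class II molecules, ran over 180.7, 208.1 and 430.2 CPM (lowest, median and highest) in aged libraries and 133.5, 142.4 and 234.6 CPM in young libraries (log2 fold change 0.60 ± 0.20, SE; edgeR adjusted p = 0.0252; n = 6 and 7). H2-Ab1, the beta chain of the A molecule, ran over 79.48, 93.65 and 177.2 CPM in aged libraries and 49.74, 52.28 and 97.48 CPM in young libraries (0.78 ± 0.20; edgeR adjusted p = 0.00594). Every one of the 6 aged libraries was above the young median for H2-Ab1, though young replicate 1 overlapped them.

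H2-Aa, the alpha chain that pairs with H2-Ab1, had 58.6, 65.02 and 155.4 CPM in aged and 39.83, 46.71 and 86.81 CPM in young libraries (0.64 ± 0.25; edgeR adjusted p = 0.0453). H2-Eb1, the beta chain of the E molecule, had 50.33, 58.22 and 149.4 CPM in aged and 34.86, 39.48 and 83.04 CPM in young libraries, a log2 fold change of 0.67 ± 0.28 that missed the threshold (edgeR adjusted p = 0.06). In all 4 genes aged replicate 2 and young replicate 1 stood above the other libraries of their age. Without aged replicate 2 the log2 fold change was 0.35 for both Cd74 and H2-Aa, 0.33 for H2-Eb1 and 0.32 for H2-DMa, and H2-Aa was not called. Without young replicate 1 it was 0.88 for H2-Eb1, which was then called. H2-Aa also lost its call when each of 8 further libraries was left out.

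**Figure D2:**
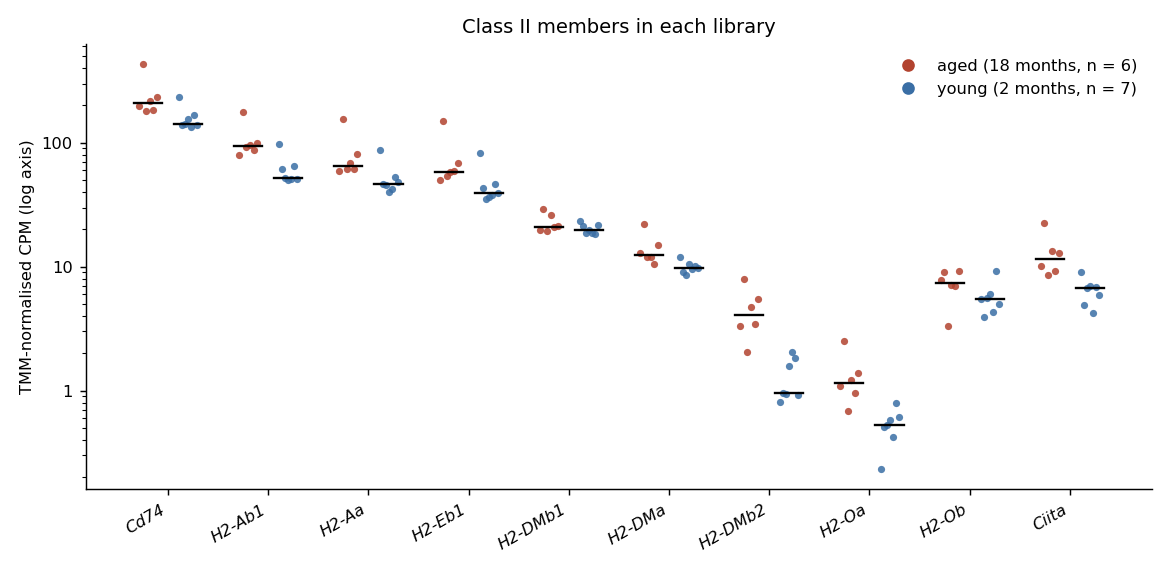
CPM, on a log axis, of class II members in each library, aged left of young, with a bar at the median and a point per library. In Cd74, H2-Ab1, H2-Aa and H2-Eb1 a single library lies far above the others of its age, which is replicate 2 in aged and replicate 1 in young mice.

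Of the loading factors, H2-DMa and H2-DMb2 were called, H2-DMb1 and H2-Ob were not, and H2-Oa is given as values only. H2-DMa, the alpha chain of the molecule that exchanges the invariant chain's remnant for peptide, was higher at 10.44, 12.44 and 22.23 CPM in aged and 8.538, 9.78 and 12 CPM in young libraries (0.50 ± 0.15; edgeR adjusted p = 0.0161). Its partner beta chains are paralogs. H2-DMb2 had 2.037, 4.087 and 8.008 CPM in aged and 0.8118, 0.9481 and 2.047 CPM in young libraries (1.79 ± 0.32; edgeR adjusted p = 0.000435), whereas H2-DMb1 had 19.29, 21.02 and 28.98 CPM in aged and 18.49, 19.65 and 23.43 CPM in young (0.16 ± 0.10; edgeR adjusted p = 0.208). The difference between the paralogs was not tested. Deposited counts of both were split between genes in 12 of 13 libraries, so values of either alone are uncertain; 4.71% of H2-DMb1's 150-base stretches occur in H2-DMb2 in the GENCODE vM21 transcripts on GRCm38. The pair's sum was 21.33, 25.51 and 36.99 CPM in aged and 19.47, 21.23 and 24.24 CPM in young libraries.

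H2-Oa and H2-Ob form the inhibitor of H2-DM. H2-Oa had 0.679, 1.151 and 2.506 CPM in aged and 0.232, 0.5263 and 0.796 CPM in young libraries. It passed the filter only through the aged libraries and is given without a test. H2-Ob was not called, with 3.338, 7.438 and 9.147 CPM in aged and 3.919, 5.451 and 9.184 CPM in young libraries (0.36 ± 0.23; edgeR adjusted p = 0.214). Ciita, the transactivator of class II genes, was higher at 8.6, 11.59 and 22.5 CPM in aged and 4.214, 6.784 and 9.104 CPM in young libraries (1.00 ± 0.23; edgeR adjusted p = 0.00289). H2-Eb2, below the filter, had 121 counts in all aged libraries and 18 in all young libraries together.

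Summed over its 11 members, class II came to 434.3, 474.9 and 1008 CPM in aged and 303.5, 325.9 and 553.2 CPM in young libraries. The aged maximum is aged replicate 2 and the young maximum is young replicate 1, so the ranges overlap through young replicate 1 alone, the next young library being at 380.4 CPM. Without aged replicate 2, 6 of 10 class II members were called and the median log2 fold change was 0.35, against 0.66 with it. Without both libraries, 8 of 10 were called and the median was 0.53, and the 21 members called in all libraries were still called. Both were left out together after they were seen to be the highest of their age in these members. Dropping the highest library of each age narrows the spread, so the calls that remain are no independent check.

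Among the classical class I heavy chains, H2-D1 was higher with age and H2-K1 was not called. H2-D1 had 601.9, 659.4 and 879.8 CPM in aged and 500.1, 549.9 and 656.8 CPM in young libraries (0.31 ± 0.09; edgeR adjusted p = 0.0141). The highest young library overlapped the lower aged ones for H2-D1. H2-K1 had 329.3, 344 and 553.8 CPM in aged and 263.9, 307.6 and 382 CPM in young libraries (0.30 ± 0.13; edgeR adjusted p = 0.0691). DESeq2 did call H2-K1, and edgeR's log2 fold change was 0.16 without aged replicate 2. B2m, the light chain shared by class I molecules, had 266.8, 322.1 and 456.8 CPM in aged and 281.5, 341.4 and 406.3 CPM in young libraries (−0.06 ± 0.11; edgeR adjusted p = 0.717), with 1 of 6 aged libraries above the young median. Its log2 fold change is 0.18 when libraries are scaled by size alone, which also puts the median of all genes at 0.24, and −0.07 relative to that median.

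The order of class I levels per transcript length was the same in both ages at the top. In TPM, a level that is scaled to transcript length, B2m averaged 1297 ± 229.7 in aged and 1350 ± 163.5 in young libraries (SD, n = 6 and 7), and the heavy chain H2-D1 averaged 1030 ± 131.3 in aged and 802 ± 70.33 in young libraries. H2-K1 came next at 619 ± 135 TPM in aged and 482 ± 58.8 TPM in young libraries. The other tested heavy chains averaged less than H2-K1 in both ages.

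The non-classical class I genes present narrow sets of peptides or signal to innate lymphocytes. They were most of the tested class I members and also gave most of the class I calls. H2-T24 had the largest change of the class, at 5.658, 11.84 and 15.79 CPM in aged and 2.2, 3.711 and 4.172 CPM in young libraries (1.74 ± 0.24; edgeR adjusted p = 5.9e-05), with no overlap. H2-M3, which presents formylated peptides, had 6.32, 8.596 and 11.77 CPM in aged and 4.315, 5.44 and 6.089 CPM in young libraries (0.71 ± 0.14; edgeR adjusted p = 0.000817), again with no overlap. H2-T23, a known ligand of an inhibitory receptor of natural killer cells, had 48.21, 57.21 and 77.46 CPM in aged and 36.55, 43.04 and 50.76 CPM in young libraries (0.45 ± 0.11; edgeR adjusted p = 0.00474). The lowest aged library for H2-T23 was below the highest young one, so these groups overlap slightly. H2-T22, a ligand of some gamma delta T cells, had 39.47 to 63.14 CPM in aged and 40.71 to 46.39 CPM in young libraries and was not called (0.18 ± 0.09; edgeR adjusted p = 0.128). H2-T-ps had 0.905 to 2.12 CPM in aged and 1.39 to 2.33 CPM in young libraries (−0.20 ± 0.20; edgeR adjusted p = 0.417).

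Of the Q genes, H2-Q6, H2-Q9 and H2-Q10 were called. H2-Q6 ran over 33.78, 39.68 and 62.7 CPM in aged and 20.89, 24.45 and 38.74 CPM in young libraries (0.71 ± 0.16; edgeR adjusted p = 0.00305). H2-Q9, a Qa-2 gene, ran over 11.42, 14.03 and 23.75 CPM in aged and 6.141, 8.28 and 12.29 CPM in young libraries (0.86 ± 0.19; edgeR adjusted p = 0.00225). H2-Q10, known as a secreted class I molecule of the liver, ran over 4.074, 7.541 and 13.59 CPM in aged and 2.139, 3.382 and 6.0 CPM in young libraries (1.12 ± 0.29; edgeR adjusted p = 0.00609). In all 3 the highest young library was above the lowest aged one. H2-Q7 had 10.17 to 26.42 CPM in aged and 7.645 to 15.89 CPM in young libraries (0.56 ± 0.24; edgeR adjusted p = 0.0738), and H2-Q4 had 51.71 to 98.49 CPM in aged and 40.03 to 76.89 CPM in young libraries (0.40 ± 0.16; edgeR adjusted p = 0.0621). Without aged replicate 2 these were 0.33 for H2-Q7 and 0.26 for H2-Q4. Counts of 12 of the 22 class I members were split by the authors' estimation, so single values of these near copies are uncertain. Counts of H2-Q7 and H2-Q9 were split in 13 libraries and those of H2-Q6 in 12. Of H2-Q6's 150-base stretches in the GENCODE transcripts, 5.99% occur in another gene. H2-Q9 was not found under its symbol in those transcripts, so stretches shared with it were not counted. Summed, H2-Q6, H2-Q7 and H2-Q9 came to 59.17, 63.35 and 112.9 CPM in aged and 35.27, 40.41 and 66.92 CPM in young libraries.

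Summed over the 14 K, D, Q and T genes, so that reads shared among them no longer matter, the level was 1168, 1250 and 1802 CPM in aged and 941.5, 1040 and 1286 CPM in young libraries, a fitted log2 fold change of 0.34. The pair H2-K1 and H2-D1 held 79.7% ± 0.697 of it in aged and 81.7% ± 0.768 in young libraries (SD, n = 6 and 7). Without aged replicate 2, 7 of 13 class I members were called and their median log2 fold change was 0.33, against 0.45 with it. Without both libraries that stand apart, 8 of 13 class I members were called, with a median of 0.39. Of the 9 class I members below the filter, H2-M2 had 37 counts in aged and 59 in young libraries, H2-M9 had 38 in aged and 17 in young, and the others had 15 or fewer in any age. H2-M10.1, H2-M11 and H2-T3 had 0 counts in the young libraries and H2-M5 had 0 in the aged libraries, and a count of 0 over an age allows up to 3 counts.

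**Figure D3:**
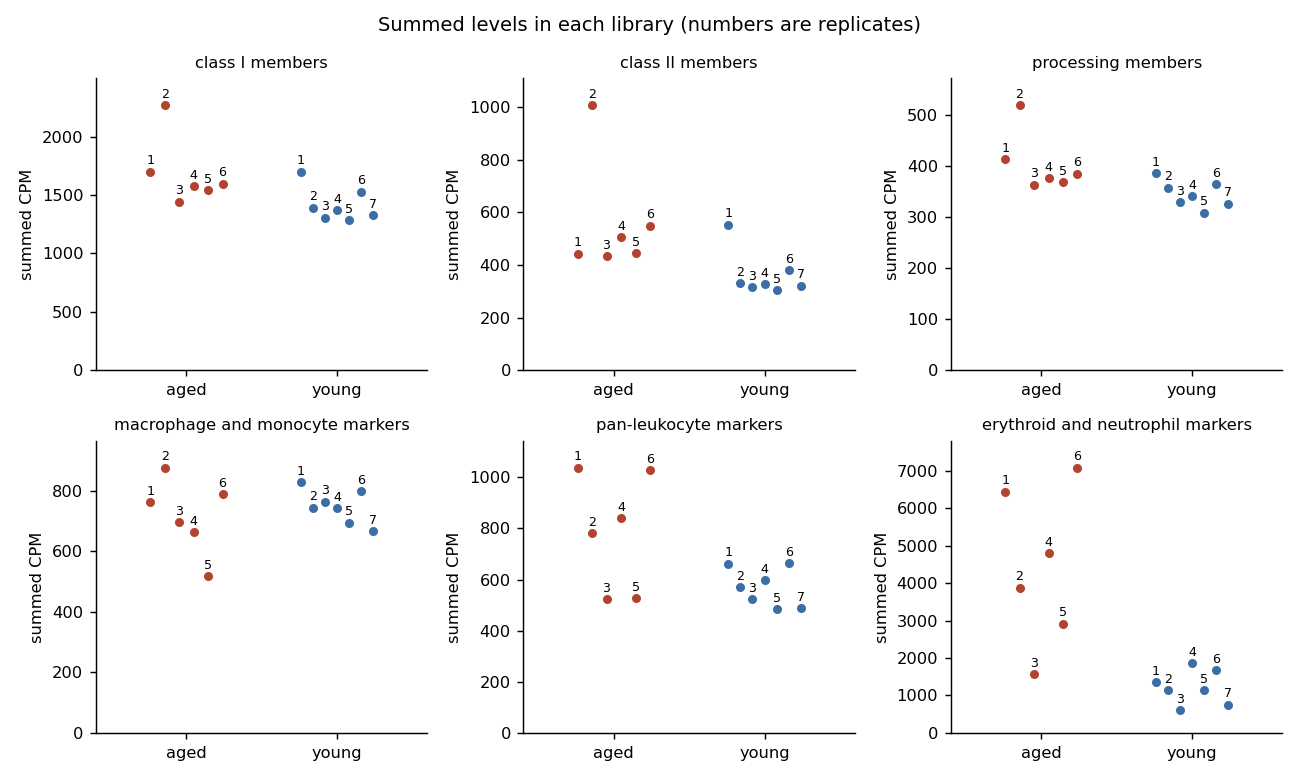
Summed CPM of class I, class II and processing members and of 3 lists of cell markers in each library, aged left of young, with each replicate's number above its point. Aged replicate 2 and young replicate 1 are the highest of their age in the panels of class I, class II, processing, and macrophage and monocyte markers. In the pan-leukocyte panel they rank 4 of 6 aged and 2 of 7 young libraries. In the panel of erythroid and neutrophil markers they rank 4 of 6 and 3 of 7.

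H2-Ke6, the dehydrogenase gene within the complex, had 15.02, 20.01 and 23.97 CPM in aged and 12.98, 13.39 and 15.83 CPM in young libraries (0.49 ± 0.11; edgeR adjusted p = 0.0024). In the GENCODE transcripts 54.5% of its 150-base stretches also occur in Gm20427; its deposited counts were whole numbers in every library.

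In the processing pathway the transporter, part of the immunoproteasome and part of the peptide editing step were higher. Tap1 and Tap2 encode the subunits of the peptide transporter. Tap2 had 48.35, 51.39 and 68.37 CPM in aged and 31.9, 39.65 and 43.67 CPM in young libraries (0.52 ± 0.09; edgeR adjusted p = 0.000541), with no overlap. Tap1 had 25.46, 29.99 and 41.56 CPM in aged and 16.98, 22.16 and 29.98 CPM in young libraries (0.52 ± 0.14; edgeR adjusted p = 0.00773). For Tap1 the groups overlapped, the highest young library lying just below the aged median. Tapbp, tapasin, which holds class I at the transporter, did not pass the test at 124.4 to 165.2 CPM in aged and 121.7 to 140.4 CPM in young libraries (0.08 ± 0.07; edgeR adjusted p = 0.365). Its homologue Tapbpl, an editor of bound peptide, was higher at 11.75 to 15.8 CPM in aged and 9.474 to 11.82 CPM in young libraries (0.35 ± 0.09; edgeR adjusted p = 0.00502). Erap1, which trims peptides, had 20.2 to 28.22 CPM in aged and 21.82 to 30 CPM in young libraries (−0.07 ± 0.10; edgeR adjusted p = 0.605).

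Of the inducible proteasome subunits, Psmb9 and Psmb8 were higher and Psmb10 was not called. Psmb9 had 6.532, 10.37 and 15.31 CPM in aged and 3.612, 5.44 and 7.713 CPM in young libraries (1.01 ± 0.22; edgeR adjusted p = 0.00175). Psmb8 had 17.77, 25.68 and 39.6 CPM in aged and 15.09, 16.1 and 22.85 CPM in young libraries (0.59 ± 0.16; edgeR adjusted p = 0.00746). Psmb10 had 13.51, 15.19 and 25.49 CPM in aged and 14.36, 15.74 and 18.73 CPM in young libraries (0.03 ± 0.13; edgeR adjusted p = 0.869). The aged and young ranges of Psmb9 and Psmb8 overlapped at their inner ends, and the aged range of Psmb10 enclosed the young one. Of the activator cap subunits, Psme1 was higher at 29.92, 34.9 and 46.14 CPM in aged and 25.28, 28.89 and 30.43 CPM in young libraries (0.32 ± 0.09; edgeR adjusted p = 0.0114), while its partner Psme2 had 26.82, 33.91 and 45.38 CPM in aged and 31.08, 35.77 and 38.39 CPM in young libraries (−0.04 ± 0.10; edgeR adjusted p = 0.755). Psme2 shares 12.1% of its 150-base stretches with Psme2b, and its deposited counts were split between genes in 13 libraries, so its values alone are uncertain. The class I transactivator Nlrc5 had 13.85, 17.61 and 28.82 CPM in aged and 10.35, 13.34 and 20.41 CPM in young libraries and was not called (0.39 ± 0.19; edgeR adjusted p = 0.11), with a log2 fold change of 0.23 without aged replicate 2. Without that library 6 of 11 processing members were called and their median was 0.23, against 0.35 with it. Without both libraries that stand apart, 6 of 11 processing members were called, with a median of 0.28.

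Each inducible proteasome subunit replaces a constitutive one, so 5 ratios of TPM were compared by exact two-sided permutation over the 1716 splits of 13 libraries into 6 and 7, for which the smallest p is 0.000583, and adjusted over the 5. Psmb9 over Psmb6 was 0.145, 0.291 and 0.435 in aged and 0.0932, 0.128 and 0.2 in young libraries, a log2 difference of 1.1 (exact permutation adjusted p = 0.00874). Psmb8 over Psmb5 was 0.216, 0.327 and 0.396 in aged and 0.163, 0.187 and 0.268 in young libraries, a log2 difference of 0.62 (exact permutation adjusted p = 0.0126). Psmb10 over Psmb7 was 0.133, 0.203 and 0.284 in aged and 0.194, 0.212 and 0.262 in young libraries, a difference of −0.12 that missed the threshold (exact permutation adjusted p = 0.469). The constitutive partners themselves were not called, with log2 fold changes of −0.01 for Psmb5, −0.09 for Psmb6 and 0.19 for Psmb7 in edgeR.

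Psme3 encodes a nuclear proteasome cap, and Psme1 over Psme3 was 1.06, 1.12 and 1.79 in aged and 1.13, 1.38 and 1.48 in young libraries (difference −0.12; exact permutation adjusted p = 0.432), and Psme3 itself was higher in aged cartilage in edgeR (0.40 ± 0.10; adjusted p = 0.00364). Without aged replicate 2 this difference was −0.23, with an exact permutation adjusted p of 0.0253. Cd74 over B2m, the invariant chain against the class I light chain in the same library, was 0.344, 0.385 and 0.551 in aged and 0.223, 0.241 and 0.320 in young libraries. All 6 aged libraries lay above all 7 young libraries, a log2 difference of 0.67 (exact permutation adjusted p = 0.00583). This ratio is of these 2 genes alone, and B2m was not called: the summed class II members had a log2 ratio of aged to young means of 0.64, and the summed K, D, Q and T heavy chains one of 0.34, a contrast that was not tested.

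**Figure D4:**
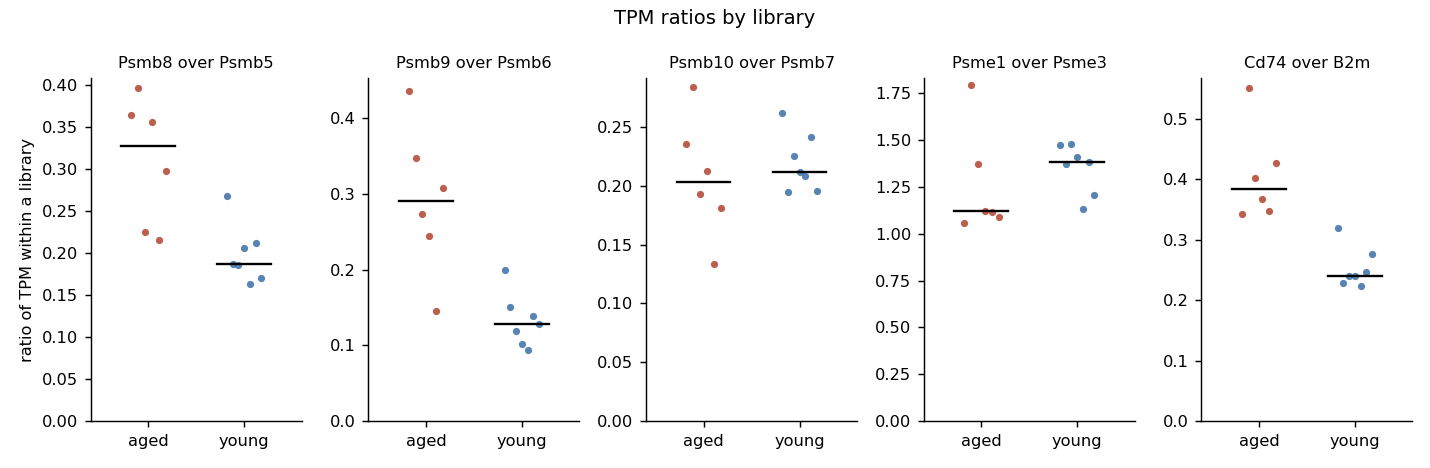
Ratios of TPM within each library, aged left of young, on linear axes that start at 0, with a point per library and a bar at the median. The aged libraries lie above the young ones for Cd74 over B2m, with medians of 0.385 and 0.241, and mostly above them for Psmb9 over Psmb6, with medians of 0.291 and 0.128.

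In lists of other genes of the same pathways, calls went both ways or lower. Counts in these and the other gene lists stand beside 24.7% of all genes tested called higher and 21.6% called lower. Of 17 tested genes of class I presentation, 0 were called higher and 6 lower, with a median of −0.13; at an unadjusted p under 0.05 in edgeR 0 were higher and 7 lower, and DESeq2 called 0 higher and 6 lower. Cd1d1, a class I-like molecule that presents lipids, fell to 12.6 to 20.9 CPM in aged, against 35.9 to 49.1 CPM in young libraries (−1.36 ± 0.12; edgeR adjusted p = 1.09e-06). Raet1e, a ligand of the activating receptor NKG2D, had 0.391 to 0.832 CPM in aged and 0.583 to 1.29 CPM in young libraries and passed the filter only through the young ones. Pdia3, the disulfide isomerase of the peptide-loading complex, fell by 0.29 on the log2 scale, while Calr, the chaperone calreticulin, missed the threshold (−0.22 ± 0.09; edgeR adjusted p = 0.06). Of 18 constitutive proteasome and cap genes, 2 were called higher and 1 lower, with a median of −0.00. Those were Psmf1, an inhibitor (0.55), Psme3 (0.40) and Psme4, another cap (−0.32), and 5 were called without aged replicate 1.

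Of 13 class II loading and endosomal protease genes, 4 were called higher and 5 lower, with a median of −0.16. Ctss, the cathepsin that degrades the invariant chain, had 34.0 to 82.2 CPM in aged and 30.5 to 45.5 CPM in young libraries (0.55 ± 0.18; edgeR adjusted p = 0.0205). Sppl2a, which removes the last fragment of Cd74 in the membrane, fell to 97.5 to 146.9 CPM in aged, against 173.7 to 198.2 CPM in young libraries (−0.68 ± 0.09; edgeR adjusted p = 3.46e-05). Cd63, an endosomal membrane protein, fell by 0.72 on the log2 scale (edgeR adjusted p = 7.46e-05).

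Of 23 genes of MHC transcription and interferon gamma signalling, 2 were called higher and 5 lower, with a median of 0.01. The share called lower is near the 21.6% of all genes. In all, 3 were called without aged replicate 1 and 4 without young replicate 6. Irf8, a factor of myeloid cells, was higher (0.75 ± 0.24; edgeR adjusted p = 0.0197). Irf1, an immediate target of interferon gamma, was at 26.6 to 42.5 CPM in aged and 27.0 to 40.8 CPM in young libraries (0.01 ± 0.11; edgeR adjusted p = 0.951). Socs1, a feedback inhibitor of interferon signalling, fell by 0.53 on the log2 scale, and Rfxank and Rfxap, subunits of the factor that binds the class II promoter module, fell by 0.35 and 0.24. Rfx5, the third subunit, was not called (−0.11 ± 0.08; edgeR adjusted p = 0.301). Ifng, the gene of interferon gamma, had 3 counts in all aged and 2 in all young libraries, too few to compare.

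Markers of the cells that make class II differed among themselves with age. Of 12 macrophage and monocyte markers, 6 were called higher and 3 lower, and they summed to 518.1, 729.9 and 876.9 CPM in aged and 666.3, 744.6 and 830.2 CPM in young libraries. The monocyte markers Ly6c2 (1.79) and Ccr2 (1.54) were higher, as were Adgre1 (0.55), Mrc1 (0.38), Cd14 (0.43) and Fcgr1 (0.66). Mertk, a receptor for dying cells on resident macrophages, was lower (−0.46), as were Csf1r (−0.46) and Cd68 (−0.43). Of 9 tested dendritic cell markers, 4 were called higher, among them Flt3 (1.29), and 1 lower, Itgax (−0.41), while Clec9a passed the filter only through the aged libraries. Cd24a, which other cell types also make, held most of their sum, at 121.4, 324.4 and 393.9 CPM in aged and 92.17, 115.9 and 170.7 CPM in young libraries, and the other 9 summed to 34.91, 46.58 and 52.44 CPM in aged and 32.87, 39.12 and 40.35 CPM in young libraries. Of 9 B cell markers, 1 was called higher, Fcmr (1.1), and 1 lower, Pax5 (−0.95), with a median of −0.55 and sums of 62.58 to 244.3 CPM in aged and 159 to 296.6 CPM in young libraries. These 2 B cell calls depend on single libraries: 6 were called without aged replicate 1, 0 without aged replicate 2, young replicate 3 or young replicate 7, and 1 without aged replicate 4 or 6 or young replicate 1, 4 or 6. The 6 pan-leukocyte markers summed to 523, 811.3 and 1038 CPM in aged and 483.6, 569.5 and 665.8 CPM in young libraries, with 3 called higher, led by Coro1a (1.16) and Cd52 (0.99), and 0 lower, also at an unadjusted p under 0.05 and in DESeq2. Without aged replicate 5, 5 of them were called. Of 7 endothelial markers 3 were called lower, led by Emcn (−0.73) and Cldn5 (−0.57), and 0 higher, also at an unadjusted p under 0.05 and in DESeq2. Fits that include a score of the macrophage and monocyte markers or of the B cell markers are given below. What part these cells have in the class I and class II differences was not tested.

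Genes of other tissues moved with age as well. Markers of red cells and neutrophils summed to 1565, 4349 and 7087 CPM in aged and 605.9, 1152 and 1859 CPM in young libraries, with 15 of 16 called higher, led by Slc4a1 (3.87) and Epb42 (3.83). Markers of skeletal muscle summed to 4227, 10950 and 16620 CPM in aged and 655.2, 1457 and 5476 CPM in young libraries, with 12 of 14 called higher, led by Myh1 (2.49) and Ckm (2.41). Aged replicate 2 had 3885 CPM of red cell and neutrophil markers, rank 4 of 6 aged libraries, and 14740 CPM of muscle markers, rank 2 of 6. Young replicate 1 had 1367 CPM and 655.2 CPM of these, ranks 3 and 7 of 7 young libraries. What part these tissues have in the class I and class II differences between ages was not tested. No marker of any of these lists was at 0 in all libraries.

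A marker score, the mean scaled log2 CPM of a list, was added to the edgeR fit as a covariate, 1 list at a time. With the macrophage and monocyte score, 6 of 13 class I, 3 of 10 class II and 3 of 11 processing members were called, with medians of 0.21, 0.26 and 0.16, where 20.4% of all genes were called higher; Ciita, H2-Ab1 and H2-DMb2 stayed called in class II. With the muscle score the counts were 6, 1 and 4, with medians of 0.52, 0.71 and 0.32, where 14.4% of all genes were called higher. With the red cell and neutrophil score they were 0, 0 and 0 (2, 0 and 1 at an unadjusted p under 0.05), with medians of 0.23, 0.37 and 0.13, where 10.6% of all genes were called higher; H2-Q10, H2-Ob, Nlrc5 and Psmb10 then had log2 fold changes below 0. With the B cell score they were 10, 9 and 7, where 25.2% of all genes were called higher. These scores correlate with age over the 13 libraries, at 0.859 for red cells and neutrophils, 0.756 for muscle, 0.516 for macrophages and monocytes and −0.31 for B cells. With the first pair of scores the part of age and of the score in the fit cannot be told apart. The fits with the macrophage and monocyte score or the B cell score do not fully separate them either. Each of these scores also averages markers called higher and markers called lower.

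**Figure D5:**
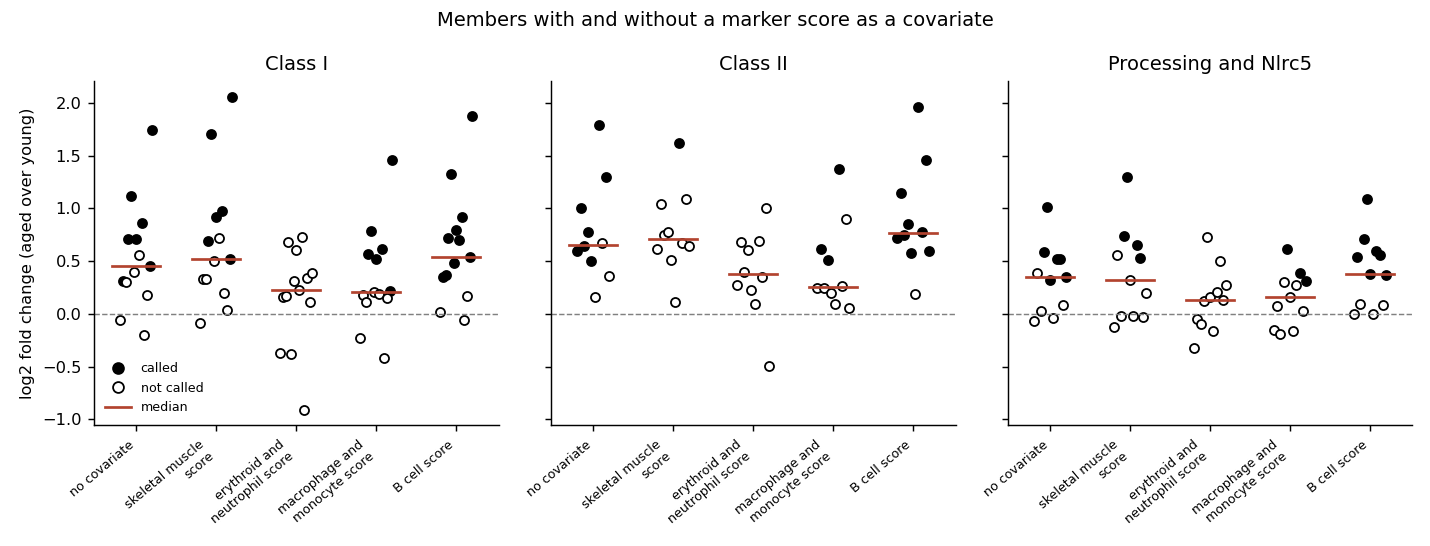
Log2 fold change, aged minus young, of each tested class I, class II and processing member in edgeR without a covariate and with each marker score as one, filled where called, with a line at the median. The class II median is 0.66 without a covariate, 0.71 with the muscle score, 0.37 with the red cell and neutrophil score, 0.26 with the macrophage and monocyte score and 0.76 with the B cell score.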

How the data were processed

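RNA of mandibular condylar cartilage was extracted with TRIzol, captured with oligo(dT) beads and sequenced in a strand-specific, paired-end library on a DNBSEQ instrument, per the labels' protocols. The submitters' processing notes name HISAT2 2.1.0, Bowtie2 2.3.4.3, RSEM 1.3.1, DESeq2 1.4.5 and GRCm39; no source used here gives their roles or the annotation. The authors deposited expected counts, which need not be whole (5.3% of values were not) because reads that fit several genes are shared out, with FPKM and TPM values beside them. No source used here says how the deposited FPKM and TPM, both scaled to transcript length, were made.

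For testing, each expected count was set to its nearest whole number and entered into edgeR 4.0.16 (TMM scaling, robust quasi-likelihood test, R 4.3.3) over genes kept by filterByExpr with a minimum count of 10 and a minimum total of 15, with age as the only term, on all 13 libraries and 14067 genes. FPKM and TPM were tested with limma 3.58.1 on a log2 scale as alternatives, with pseudocounts of 1 and 0.1 for FPKM and 1 for TPM, which understate the change of low genes. DESeq2 1.42.0, voom, other scalings and filters, marker scores as covariates, the replicate number as a block and each library left out were also tried. TPM ratios within a library used exact permutation. The statistics were checked on simulated data. Figures used matplotlib 3.10.9. Counts limit precision: depth differs little between libraries, and low genes carry the largest errors.

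The members and gene lists were chosen with earlier results of these data known. Every member that passed the filter is named, and from other lists the 2 called with the largest change in the majority direction and 1 in the other. Calr, Comp, Acan, Cd24a, Pdia3, Rfxap, Rfx5, Irf1, Ifng, Cd3d and Cd3e were added for their roles after their values were seen. Hapln1, Cd3g, Klrd1, Ncr1 and Gzma were added after that as well, to show more of their lists. Adgre1, Mrc1, Cd14, Fcgr1, Csf1r and Cd68 were also added then, so that every called macrophage and monocyte marker is named. H2-Oa, Raet1e, Clec9a, Cd8a and Matn1, which passed the filter in 1 age only, are given as values without a test. They still stand in the counts of their class or list. Promoter letters come from RefSeq windows on GRCm38.p6, and the sequence of Cd74 is not used here. 1 further result is not reported here.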

Additional observations from a re-analysis of the deposited data

Results flagged for a closer look

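In groups of 6 or 7 libraries, a single library can lie far from the others of its age. A check compared the gap between the highest or lowest library and its nearest neighbour with the group's whole range. It was run over 80 groups (35 members and 5 ratios in each age), and chance marks about 1 in 20 single groups. The groups share the same libraries and are not independent, so the number marked cannot be judged by that rate. The check marked 18, of which 12 were aged replicate 2, 4 young replicate 1 and 2 young replicate 6.

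Aged replicate 2 stood apart in 3 kinds of member. In class I these were B2m (457 CPM), H2-D1 (880 CPM), H2-K1 (554 CPM) and H2-Q9 (23.8 CPM). In class II these were Cd74 (430 CPM), Ciita (22.5 CPM), H2-Aa (155 CPM), H2-Ab1 (177 CPM) and H2-Eb1 (149 CPM). In processing these were Psmb10 (25.5 CPM), Psme1 (46.1 CPM) and Tapbp (165 CPM).

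Young replicate 1 stood apart in the class II genes Cd74 (235 CPM), H2-Aa (86.8 CPM), H2-Ab1 (97.5 CPM) and H2-Eb1 (83 CPM). Young replicate 6 stood apart in H2-T-ps (2.33 CPM) and H2-Ob (9.18 CPM). The reason these libraries are high was not tested.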

How the results depend on the processing

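Of the 21 members called, 21 stayed called with RLE scaling, library sizes alone, DESeq2, limma on log2(FPKM + 1), log2(FPKM + 0.1) or log2(TPM + 1), the B cell score, and without both libraries that stand apart (an alternative chosen after seeing the data). With no low-count filter or voom 20 did, H2-Aa being lost, and under a filter of 1 CPM in 6 libraries 20 did, H2-Oa being untested. DESeq2 also called H2-K1, H2-Q4, H2-Q7 and H2-Eb1. The class I count was 11 with library sizes alone and with limma on either FPKM scale, and 1 (H2-M3) with the K, D, Q and T genes summed, where only B2m and H2-M3 remain as single class I genes. With the muscle score 3781 genes and 1 class II member were called. With the red cell and neutrophil score 2746 genes were called, and 0 members in class I, 0 in class II and 0 in processing. The macrophage and monocyte score left 3 in class II and 3 in processing. The cause of these losses was not tested.

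Leaving out 1 library at a time, the log2 difference of Psme1 over Psme3 ran from −0.23 to −0.08, and that without aged replicate 2 passed the threshold. Psme2 ran from −0.14 to 0.01 and Psmb10 from −0.14 to 0.08.

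Some log2 fold changes changed sign, most from main values of −0.20 to 0.08. B2m was 0.18 with library sizes alone, 0.07 and 0.08 on the FPKM scales (pseudocounts 1 and 0.1) and 0.02 with the B cell score. Erap1 was 0.17, 0.14, 0.16 and 0.00 in the same order, and 0.02 on the TPM scale. Psme2 was 0.19, 0.09, 0.09 and 0.00 in the same order. H2-T-ps was 0.03 with library sizes alone and 0.20 with the muscle score. Psmb10 was −0.02 with voom, −0.03 with the replicate block, −0.02 with the muscle score, −0.10 with the red cell and neutrophil score, −0.19 with the macrophage and monocyte score and −0.10 without young replicate 1 and aged replicate 2. Tapbp was −0.03 with the muscle score. With the red cell and neutrophil score H2-Q10 was −0.38 (1.12 and called without it), H2-Ob −0.49 (0.36) and Nlrc5 −0.05 (0.39).

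With the replicate number as a block, 5789 genes, 7 class I, 5 class II and 6 processing members were called, and Cd74 (edgeR adjusted p = 0.0742) and H2-Aa (0.0983) lost their calls. Same-numbered aged and young libraries correlated at 0.254, 0.156, 0.258, −0.12, 0.111 and 0.167, against −0.382 to 0.305 between different numbers; 2 of 6 aged and 2 of 6 young libraries correlated best with their own number, and the labels give no shared source, so the numbers were not treated as pairs. Low counts limit H2-Oa, H2-T-ps and the 10 members below the filter.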

Other observations

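Genes of T cell contact, from a list apart from the members, did not all go one way. Of 7 tested, 4 passed the test as higher with age and 2 as lower, beside 24.7% and 21.6% of all genes. Cd80, a costimulatory ligand, ran from 1.64 to 8.23 CPM in aged and from 0.638 to 1.63 CPM in young libraries (1.47 ± 0.36; edgeR adjusted p = 0.00457). Cd274, the inhibitory ligand PD-L1, ran from 4.3 to 8.01 CPM in aged and from 1.69 to 3.48 CPM in young libraries (1.07 ± 0.20; edgeR adjusted p = 0.000747). Cd40, a receptor on antigen-presenting cells, fell to 1.56 to 2.83 CPM in aged, against 3.92 to 4.59 CPM in young libraries (−1.01 ± 0.15; edgeR adjusted p = 0.000121).

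Markers of T and NK cells were scarce, and 4 of 10 could be tested. Of these, 3 were called higher and 1 lower, beside 24.7% and 21.6% of all genes. Nkg7, a granule protein of cytotoxic cells, had 3.56 to 11.9 CPM in aged and 1.29 to 3.31 CPM in young libraries (1.71 ± 0.29; edgeR adjusted p = 0.00036). Cd8a had 0.708 to 1.87 CPM in aged and 0.126 to 0.696 CPM in young libraries and passed the filter only through the aged ones, and Cd4 was lower (−0.38 ± 0.12; edgeR adjusted p = 0.0175). Cd3e had 81 counts in all aged and 11 in all young libraries, and Cd3d had 87 in aged and 17 in young libraries. Of the other untested markers, Cd3g, Klrd1 and Ncr1 had higher mean CPM in aged libraries. Gzma had a lower mean, 0.249 CPM in aged and 0.317 CPM in young libraries. How these cells bear on the MHC differences was not tested.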
